A study of Mus musculus with 9 samples.

Results

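The amyloid precursor protein family and the proteases that cut it were examined in the hippocampus of mice fed a high-methionine diet, with and without betaine. The members were 9 genes chosen by name: the precursors App, Aplp1 and Aplp2, the β-secretases Bace1 and Bace2, the α-secretase Adam10, and Psen2, Ncstn and Aph1a of γ-secretase. These were 9 of the 54532 genes measured, and the rule that picks them is the gene name. Bulk RNA-seq had been performed on 9 hippocampal libraries in 3 groups of 3, all from mice labelled as male and aged 6 to 8 weeks. The strain was labelled C57BL/6, except that the tags of 2 betaine samples read C57BL/7 and C57BL/8. Con mice received standard chow, HMD mice received chow high in methionine over 8 weeks, and Bet+HMD mice received the methionine diet over the same 8 weeks and then betaine at 2.5% (w/v) in their water over 2 weeks. Neither the labels nor the methods state whether the methionine diet went on during betaine, and no group received betaine alone. The labelled age is the same in every group although betaine followed 8 weeks of diet, so Bet+HMD mice may have been older when sampled. The methods describe female mice, whereas reads of the Y-linked gene Ddx3y stood at 12.7 FPKM or more in every library. Separate animals per library were not stated, so p-values measure the spread between these samples, which may be technical.

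Full-length App passes through the membrane once and can be cut along competing routes. Adam10 sheds the ectodomain within the amyloid-β sequence, so that no amyloid-β can form. Bace1 cuts at the start of that sequence, and γ-secretase, a complex with presenilin as its catalytic subunit and with nicastrin and Aph1 among its partners, then releases amyloid-β from the membrane. Aplp1 and Aplp2 are cut by the same enzymes but lack the amyloid-β sequence. Methionine is turned into homocysteine, and betaine donates a methyl group that turns homocysteine back into methionine.

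Positions are on GRCm38, and all 9 genes had the same position in the GENCODE M21 annotation. App, on the minus strand at chr16:84949685-85173766, had 12996 bases of exon sequence over all its transcripts. Aplp1 lay at chr7:30434982-30445535 and Aplp2 at chr9:31149557-31211815, both on the minus strand and free of overlapping genes. Adam10, at chr9:70678997-70780229 on the plus strand, had no overlapping gene either. Bace1 lay at chr9:45838580-45864399 on the plus strand and was overlapped from the other strand by Rnf214, Gm16536 and Gm49338. Ncstn, at chr1:172066013-172082795, was overlapped in the same way by Copa, Aph1a, at chr3:95893969-95898288, by Car14, and Psen2, at chr1:180227004-180263438, by the antisense gene Gm31728. Bace2 lay at chr16:97356742-97442936. The strand setting used in counting was not given in the sources used here, so the values of Bace1, Ncstn, Aph1a and Psen2 are uncertain where those neighbours share their sequence. App was overlapped by 5 small or antisense genes, of which the highest, Gm10791, had group means of 0.598 to 3.16 FPKM beside 97.4 to 115 FPKM for App.

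The stretch of 250 bases before the start is shown for the precursors App, Aplp1 and Aplp2. The sequences were taken from RefSeq on GRCm38.p6 and run 5′ to 3′ on the minus strand, with the GC box letters GGGCGG or their complement CCGCCC in capitals. App spans chr16:85173708-85173957, Aplp1 chr7:30445583-30445832 and Aplp2 chr9:31211849-31212098.
App: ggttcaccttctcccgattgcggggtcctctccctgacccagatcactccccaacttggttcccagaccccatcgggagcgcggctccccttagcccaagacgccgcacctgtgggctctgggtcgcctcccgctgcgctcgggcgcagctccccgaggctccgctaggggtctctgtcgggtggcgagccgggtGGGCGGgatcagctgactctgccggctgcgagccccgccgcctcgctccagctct
Aplp1: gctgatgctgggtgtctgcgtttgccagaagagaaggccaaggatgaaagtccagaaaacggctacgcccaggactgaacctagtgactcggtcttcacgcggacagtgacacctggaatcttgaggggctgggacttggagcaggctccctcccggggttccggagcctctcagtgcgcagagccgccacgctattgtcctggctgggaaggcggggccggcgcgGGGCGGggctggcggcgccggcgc
Aplp2: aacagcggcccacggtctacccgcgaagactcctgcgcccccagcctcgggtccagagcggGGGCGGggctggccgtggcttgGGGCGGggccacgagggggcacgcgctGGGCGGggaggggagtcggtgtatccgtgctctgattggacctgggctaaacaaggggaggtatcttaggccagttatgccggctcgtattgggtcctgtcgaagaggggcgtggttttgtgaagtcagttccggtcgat
A GC box, the letters bound by Sp-family factors, occurred 1 time before App, 1 time before Aplp1 and 3 times before Aplp2. Of the 9 members, 7 had an entry, and Bace1 and Bace2 had none. The RefSeq starts lay up to 59 bases from the gene starts given above, except that of Psen2, which lay 7138 bases inside the gene. The Psen2 stretch held 2 GC boxes, Ncstn 0, Aph1a 1 and Adam10 3, so 6 of the 7 had at least 1, against 32.7% of 32851 stretches of the same length. None of the 7 held TATAAA on either strand, against 12.4% of all stretches. Their GC content ran from 57.2% (Aph1a) to 74.0% (Adam10), and the median over all stretches was 52.4%. A match is a description of letters and says nothing of what bound there.

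The processed values were FPKM (fragments per kilobase of exon sequence, scaled to the size of the library), in 2 tables. The earlier table holds Con and HMD, and the later one holds the same 6 libraries counted again together with Bet+HMD. Between 16031464 and 18566712 reads per library were assigned to genes. The summed FPKM of a library was 249135 to 258514 in Bet+HMD and 288439 to 307899 in the other 6 libraries of the later table. The scale of the values thus differed between groups and is followed below. Genes with a read also differed in number, at 25315 to 25663 in Bet+HMD and 20816 to 23272 in those 6 libraries. Rescaling a library by 1 factor leaves that number as it is, and its part in the results was not tested. Since Bet+HMD appears in the later table alone, betaine and any batch of those libraries cannot be told apart. Hippocampal markers summed to 220 to 238 FPKM in Con, 181 to 219 in HMD and 188 to 193 in Bet+HMD, and none was at 0. Both diet groups thus lay below every Con library. Summed markers of microglia were 72.9 to 73.8 FPKM in Bet+HMD and 88.0 to 107 in the other libraries, those of endothelium 43.2 to 45.9 and 52.5 to 63.9, those of astrocytes 348 to 372 and 387 to 470, and those of neurons 763 to 775 and 786 to 929. Oligodendrocyte markers summed to 732 to 739 FPKM in Bet+HMD, inside the Con range of 671 to 1143 and below the HMD range of 752 to 1012. Blood markers summed to 72.2 to 122 FPKM in Bet+HMD, 99.8 to 148 in Con and 149 to 233 in HMD. By the limma test described below, 3 of 6 microglial, 2 of 5 endothelial, 2 of 6 astrocyte, 3 of 6 oligodendrocyte and 2 of 5 blood markers were lower in Bet+HMD than in HMD and none of them was higher. Of 8 hippocampal markers 2 were lower, Fibcd1 and Spink8, and 0 were higher. Of 6 neuronal markers 2 were lower and 2 higher, and of all genes 25.5% were lower and 22.8% higher. None of these markers was at 0. These sums and tests used FPKM as deposited and were not rescaled for the smaller FPKM sums of the Bet+HMD libraries. Markers of thalamus summed to 12.6 to 41.8 FPKM in HMD, 7.07 to 10.5 in Con and 10.5 to 11.5 in Bet+HMD. Their part in any result below was not tested, and in bulk tissue fewer cells of a type and less RNA per cell cannot be told apart.

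Precursor transcripts far outnumbered those of the secretases in FPKM, a level per length. Aplp1 had the highest FPKM in all 3 groups, followed by App, Aplp2, Adam10, Ncstn, Bace1, Aph1a, Psen2 and Bace2. FPKM divides by the exon length over all transcripts, which was 12996 bases for App and 3017 for Aplp1. In the counts that include Bet+HMD, App stood first by reads, at 21839 to 26781 per library, and Aplp1 had 10538 to 18303. In Con, mean levels ran from 320.2 ± 14.0 FPKM (SD, n = 3) for Aplp1 down to 0.538 ± 0.106 FPKM for Bace2. The order by FPKM was the same in every group, but not every step exceeded the spread. Ncstn and Bace1 overlapped in Con, where Ncstn was at 13.2 to 16.1 FPKM and Bace1 at 10.5 to 13.7 FPKM. App and Aplp2 overlapped in HMD, where Aplp2 reached 116 FPKM in 1 library. No neighbours overlapped in Bet+HMD, where App and Aplp2 were only 1.05-fold apart. Aplp1 stood 2.80-fold above App in Con, 2.91-fold in HMD and 2.21-fold in Bet+HMD.

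**Figure D1:**
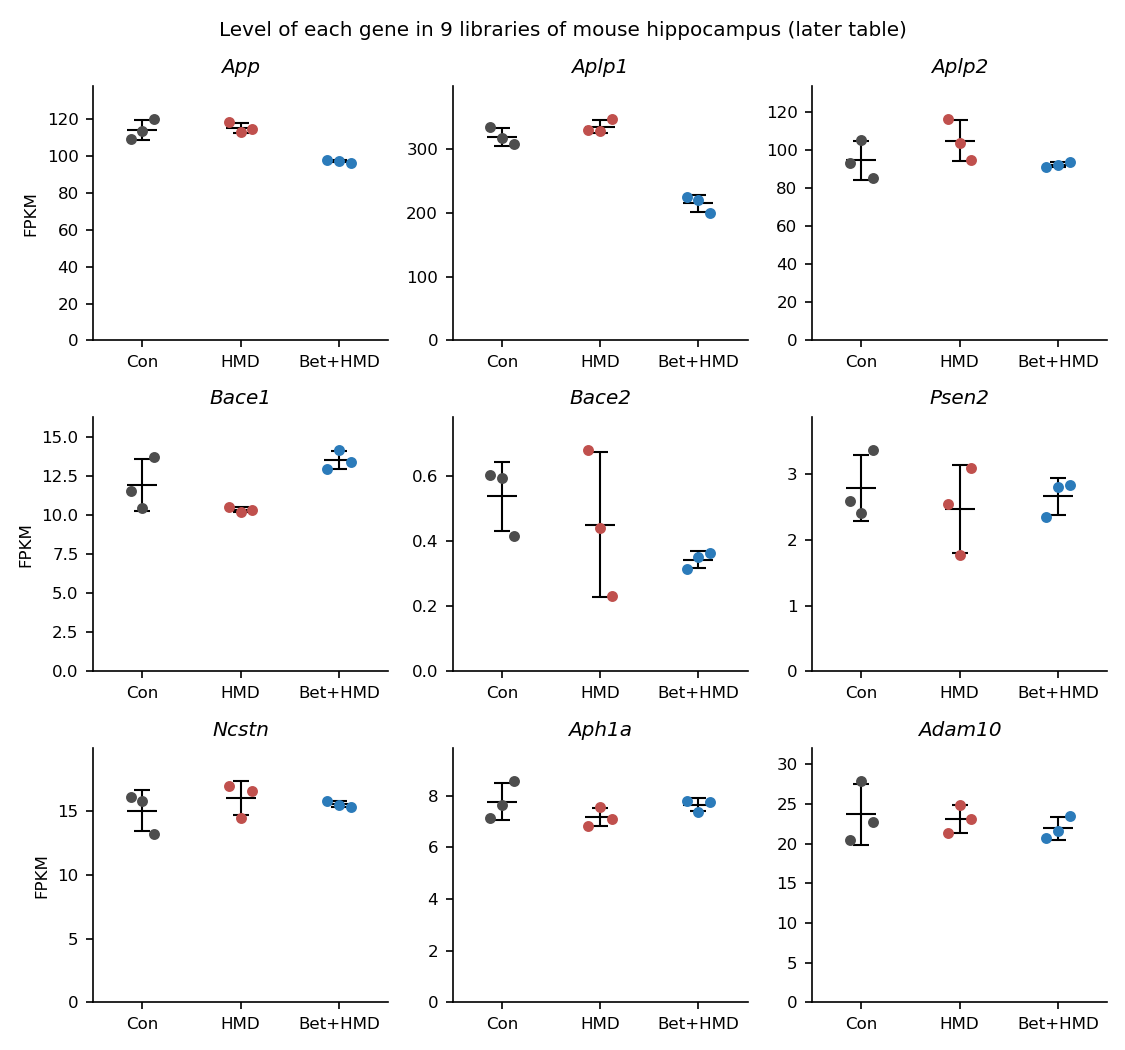
FPKM of each of the 9 genes in the 9 libraries of the later table, with points for single libraries, a long bar for the group mean and whiskers for 1 SD (n = 3); each vertical axis starts at 0. The Bet+HMD points of App and Aplp1 lie below all other points, those of Bace1 lie above the HMD points but span part of the Con range, and Bace2 stays under 1 FPKM.

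The first comparison asked whether the methionine diet altered the members, and no member passed the test. Across all 12989 genes tested, 0 were called at an adjusted p under 0.05 (limma on log2(FPKM + 1), two-sided, Benjamini-Hochberg), which is 0%. Without adjustment, 592 genes (4.56%) had a p under 0.05, and none of the members was among them. The groups of 1217 genes (9.37%) did not overlap, 4.71% higher and 4.66% lower, and all 8 members tested overlapped. Voom on the recovered reads also called 0 genes, with 539 at an unadjusted p under 0.05. Bace2, with a mean under 1 FPKM, did not enter the test.

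Of the precursors, App stood at 107.6, 111.7 and 117.0 FPKM in the Con libraries of the earlier table and at 117.2, 110.3 and 112.5 FPKM in HMD. The HMD values lay inside the Con range but for 1, which exceeded it by a fraction of 1 FPKM. The log2 fold change was 0.02 ± 0.102 (SE), with a 95% interval from -0.22 to 0.25 and an adjusted p of 0.992. Aplp1 had a mean of 314 ± 15.2 FPKM in Con and 331 ± 11.6 in HMD (log2 fold change 0.07), and Aplp2 92.8 ± 10.3 and 103 ± 11.1 FPKM (0.15). Both pairs of groups overlapped.

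Among the secretases, Bace1 stood at 11.4, 10.4 and 13.3 FPKM in Con and at 10.5, 10.1 and 10.04 FPKM in HMD. The HMD values were closer together than those of Con, and 2 of the 3 lay below the lowest Con library. Bace1 had a log2 fold change of -0.18 ± 0.116 (95% interval -0.45 to 0.10; adjusted p 0.980). Adam10 had 20.1, 27.5 and 22.1 FPKM in Con and 21.4, 24.3 and 22.9 in HMD, with a log2 fold change of -0.01 (95% interval -0.33 to 0.31). The γ-secretase subunits had log2 fold changes of -0.11 (Psen2), 0.08 (Ncstn) and -0.10 (Aph1a), each with an adjusted p of 0.980. Psen2 was the least precisely measured of the 8, with a 95% interval from -0.52 to 0.29, and was backed by 122 to 250 reads per library. Bace2, the other β-secretase, stood at 0.624, 0.591 and 0.403 FPKM in Con and 0.710, 0.417 and 0.221 in HMD, on 31 to 104 reads.

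The second comparison set betaine after the diet against the diet alone, and 3 of the 8 members tested passed. Aplp1 fell to 0.643 of its HMD level and App to 0.846, while Bace1 rose 1.28-fold (folds of FPKM + 1). Calls were common here: 48.3% of 13672 genes were called, 22.8% higher and 25.5% lower, and the members' 3 of 8, also the number at an unadjusted p under 0.05 (55.8% of genes), is no more than that background. No member reached a log2 fold change of 1 in size, as 8.93% of genes did.

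**Figure D2:**
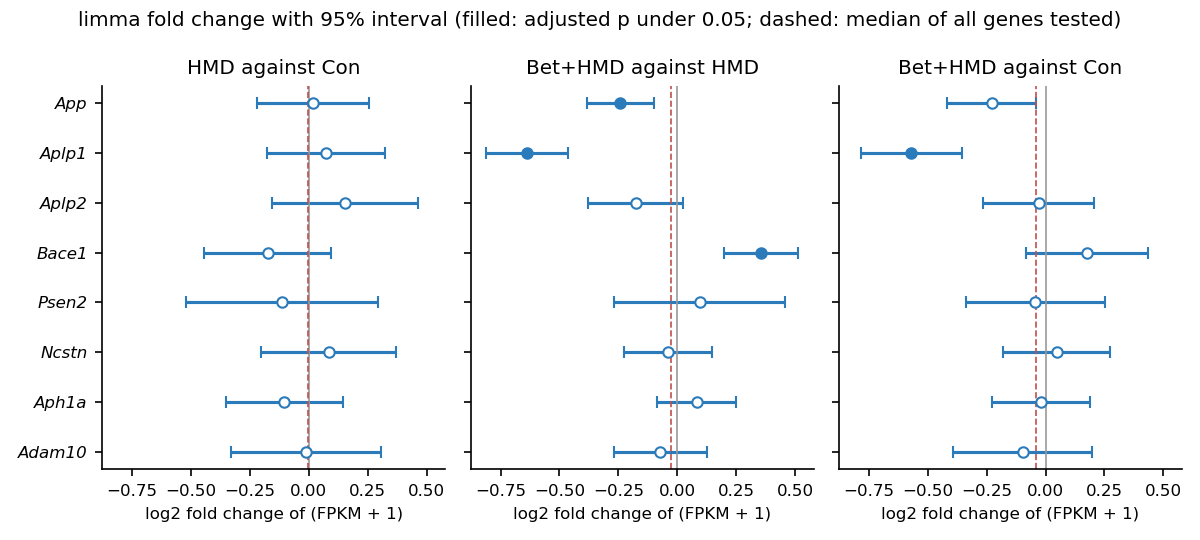
Log2 fold change of FPKM + 1 with its 95% interval for the 8 members tested, in the 3 comparisons (n = 3 per group, limma); filled points have an adjusted p under 0.05, the grey line marks 0 and the dashed line the median of all genes tested. No point is filled for HMD against Con, App, Aplp1 and Bace1 are filled for Bet+HMD against HMD, and Aplp1 alone is filled for Bet+HMD against Con.

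Aplp1, a precursor-like protein found mainly in neurons, stood at 330.4, 328.9 and 347.6 FPKM in HMD and at 225.8, 220.5 and 200.6 FPKM in Bet+HMD. The highest betaine library lay far under the lowest HMD library. The log2 fold change was -0.64 ± 0.0738 (95% interval -0.81 to -0.46), with an adjusted p of 0.000575 (limma). The call held in all 12 alternatives, over which the fold change ran from -0.64 to -0.25.

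App stood at 118.6, 112.9 and 114.6 FPKM in HMD and at 98.0, 97.6 and 96.5 FPKM in Bet+HMD, so the groups did not overlap. The 3 betaine libraries were closer to each other than the 3 of HMD. The log2 fold change was -0.24 ± 0.0608 (95% interval -0.38 to -0.10), with an adjusted p of 0.0147 (limma). The App call was lost when any of the 3 betaine libraries was left out, with adjusted p-values up to 0.0655. It was also lost under voom (-0.16, adjusted p 0.0720) and when libraries were rescaled to equal sums (TPM; -0.04, adjusted p 0.592), and the sign turned under quantile normalization (0.13, adjusted p 0.0952).

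Aplp2, a close relative of App, stood at 116, 104 and 94.99 FPKM in HMD and at 91.3, 92.4 and 94.0 FPKM in Bet+HMD. The groups did not overlap, although the nearest libraries were almost level. Groups did not overlap for 4 of the 8 members, Bace1 higher and App, Aplp1 and Aplp2 lower, beside 60.1% of all genes (28.3% higher and 31.8% lower). The log2 fold change of -0.18 ± 0.0862 did not pass (adjusted p 0.128). Without HMD replicate 3, the lowest of its group, Aplp2 passed with an adjusted p of 0.0328. The sign turned under TPM (0.02) and quantile normalization (0.22).

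Bace1, the enzyme that starts the amyloid-β route, stood at 10.5, 10.2 and 10.3 FPKM in HMD and at 13.0, 14.1 and 13.4 FPKM in Bet+HMD. The groups were separated by more than the range of either. The log2 fold change was 0.36 ± 0.0672 (95% interval 0.20 to 0.51), with an adjusted p of 0.00452 (limma), and the call held in all 12 alternatives (0.36 to 0.57). The overlapping genes on the other strand had means of 7.75 FPKM (Rnf214), 7.60 (Gm16536) and 3.62 (Gm49338) in HMD and 8.48, 7.40 and 4.56 FPKM in Bet+HMD. Their part in the Bace1 value was not tested. Bace2 had 0.679, 0.439 and 0.233 FPKM in HMD and 0.314, 0.351 and 0.364 in Bet+HMD, with the betaine values inside the HMD range. Fitted with no filter on low values, the Bace2 difference was -0.10 on the log2 scale (adjusted p 0.597).

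The remaining members did not pass. Adam10 had 21.4, 24.9 and 23.1 FPKM in HMD and 20.7, 21.6 and 23.5 in Bet+HMD, which overlap, with a log2 fold change of -0.07 (95% interval -0.27 to 0.12; adjusted p 0.505). Ncstn, the subunit that admits substrates, had 16.9, 14.5 and 16.6 FPKM in HMD and 15.8, 15.5 and 15.3 in Bet+HMD (log2 fold change -0.04, 95% interval -0.22 to 0.15). Aph1a, the scaffold subunit, averaged 7.16 ± 0.357 FPKM and 7.64 ± 0.247 (0.08, 95% interval -0.09 to 0.25). Under TPM alone, Aph1a passed with a log2 fold change of 0.28 and an adjusted p of 0.0222. Psen2, 1 of the alternative catalytic subunits, averaged 2.46 ± 0.666 and 2.66 ± 0.279 FPKM (0.10, 95% interval -0.27 to 0.46).

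The third comparison set Bet+HMD against Con, and 1 member passed. It shares the Bet+HMD libraries with the second, and the second and first share HMD, so the comparisons are not independent of each other. The background was 39.7% of 13643 genes called, 19.4% higher and 20.4% lower, with 49.6% at an unadjusted p under 0.05, 55.1% not overlapping (26.1% higher and 29% lower) and 8.74% called with a log2 fold change of at least 1 in size. Aplp1 stood at 335.4, 317.2 and 307.9 FPKM in Con, each above every betaine library, with a log2 fold change of -0.57 ± 0.0905 (adjusted p 0.00349, limma). This call held in 11 of 12 alternatives and was lost under quantile normalization (-0.14, adjusted p 0.260).

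App stood at 109.5, 113.5 and 120.1 FPKM in Con and did not overlap with Bet+HMD. Its log2 fold change of -0.23 ± 0.0791 missed the threshold (adjusted p 0.0568), and passed in 1 of 12 alternatives, the fit shared by all 3 groups (adjusted p 0.0371). Over those alternatives the adjusted p went up to 0.942, and the sign turned under quantile normalization (0.19). Bace1 stood at 11.5, 10.5 and 13.7 FPKM in Con, where the third library overlapped Bet+HMD, and its log2 fold change of 0.18 ± 0.109 did not pass (adjusted p 0.237). Without Con replicate 3 it passed with an adjusted p of 0.0323, and under TPM with 0.0483 (0.40). Aplp2 averaged 94.8 ± 10.2 FPKM in Con and 92.6 ± 1.36 in Bet+HMD (log2 fold change -0.03, adjusted p 0.837), and was called higher under quantile normalization alone (0.39, adjusted p 0.0293). Psen2, Ncstn, Aph1a and Adam10 had log2 fold changes of -0.04, 0.05, -0.02 and -0.10, with adjusted p-values of 0.569 to 0.883. Bace2 had 0.603, 0.595 and 0.415 FPKM in Con, all above its betaine values, and a log2 fold change of -0.19 with no filter (adjusted p 0.187).

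The scale of the libraries bore on these values because Bet+HMD libraries had smaller FPKM sums. Under TPM the median over all genes went, in log2 fold change, from -0.03 to 0.16 for Bet+HMD against HMD and from -0.04 to 0.17 against Con. With it, the share of calls that were higher went from 47.2% to 69.5% and from 48.8% to 73.5%. Relative to the median of all genes, Aplp1 was at -0.61 as deposited and -0.60 under TPM against HMD, App at -0.22 and -0.20, and Bace1 at 0.38 and 0.41. Adam10 (-0.05 and -0.04) and Ncstn (-0.01 and -0.00) lay near that median on both scales. Quantile normalization, which forces 1 distribution on all libraries, moved the precursors the most, to -0.20 for Aplp1, 0.18 for App and 0.26 for Aplp2 relative to the median.

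**Figure D3:**
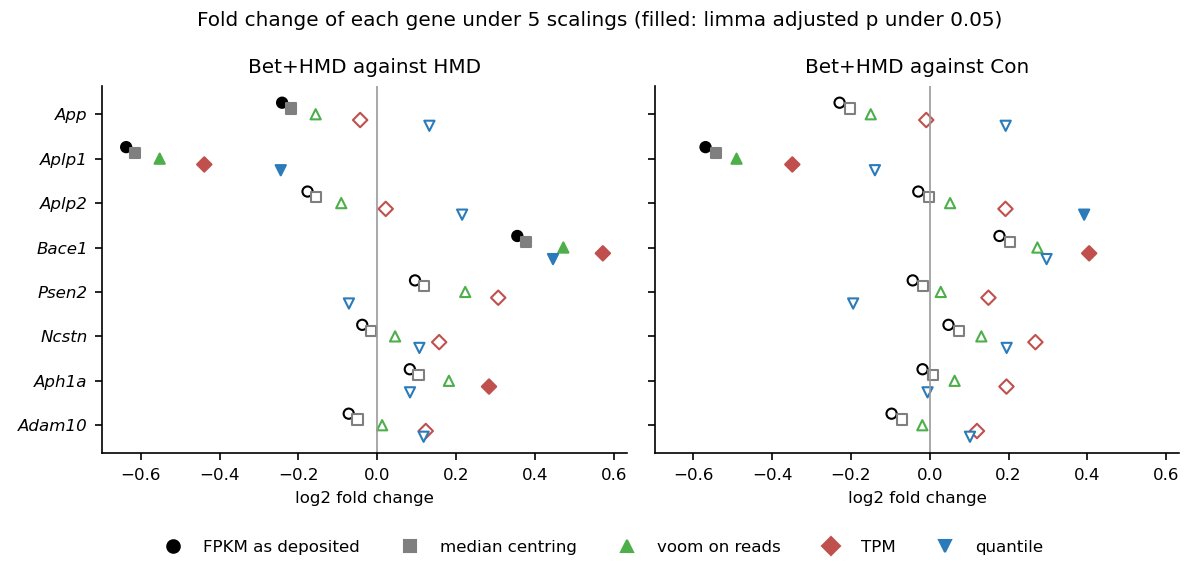
Log2 fold change of the 8 members tested under 5 scalings, for Bet+HMD against HMD (left) and against Con (right); filled symbols have a limma adjusted p under 0.05. Aplp1 is left of 0 and Bace1 right of 0 under every scaling, while App spans 0 and is filled for FPKM and median centring against HMD only.

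The precursors are among the highest genes, and level moved with the fold change. With genes divided into 5 equal classes by level, the median log2 fold change for Bet+HMD against HMD was 0.16, 0.07, 0.01, -0.11 and -0.25 from the lowest class to the highest. App, Aplp1, Aplp2 and Adam10 belong to the highest class, so the App value of -0.24 was close to the median of genes of its level, and that of Aplp1 lay below the lower quartile of -0.53. Bace1 belongs to the class below, where the median was -0.11 and the upper quartile 0.18, and its value of 0.36 lay above both. In 5 such classes by length of exon sequence, the median was -0.15 in class 2, which holds Aplp1, and 0.09 in class 5, the longest genes, which holds App. The part of level and length in these values was not tested.

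Ratios of FPKM within a library do not change when a library is multiplied by 1 factor, as TPM does, though quantile normalization would change them. They are given as a description. App relative to Aplp1 was 0.327, 0.358 and 0.390 in Con, 0.359, 0.343 and 0.330 in HMD and 0.434, 0.443 and 0.481 in Bet+HMD. Every betaine library exceeded all 6 others, and the mean was 1.32-fold that of HMD (geometric means). Of the summed FPKM of the 3 precursors, Aplp1 made up 60.5% ± 1.63 (SD, n = 3) in Con, 60.4% ± 1.98 in HMD and 53.1% ± 1.63 in Bet+HMD. App made up 21.6% ± 1.58, 20.7% ± 0.212 and 24.0% ± 0.571 in the same order, and Aplp2 17.9% ± 1.61, 18.9% ± 1.78 and 22.8% ± 1.06. These are shares of FPKM and not of reads. In all 3 shares the betaine libraries did not overlap with either other group. The shares add up to the whole, so they are not separate results. The App and Aplp2 shares were higher than in HMD while their mean FPKM was lower. Of single genes, 60.1% did not overlap against HMD and 55.1% against Con, and no such background was computed for ratios or shares.

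Bace1 relative to Adam10, the β-secretase over the α-secretase, was 0.562, 0.375 and 0.604 in Con, 0.492, 0.410 and 0.445 in HMD and 0.627, 0.655 and 0.571 in Bet+HMD. The betaine libraries lay above all HMD libraries (1.38-fold, geometric means) but overlapped with Con. In Con the lowest ratio, 0.375, came from the library with the highest Adam10 level. App relative to Aplp2 was 1.07 to 1.41 in Con, 1.02 to 1.21 in HMD and 1.03 to 1.07 in Bet+HMD, with Con and Bet+HMD just apart. Bace1 relative to Bace2 was 17.6 to 33.0 in Con, 15.5 to 44.3 in HMD and 36.8 to 41.3 in Bet+HMD, the wide ranges going with the 31 to 93 reads of Bace2.

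**Figure D4:**
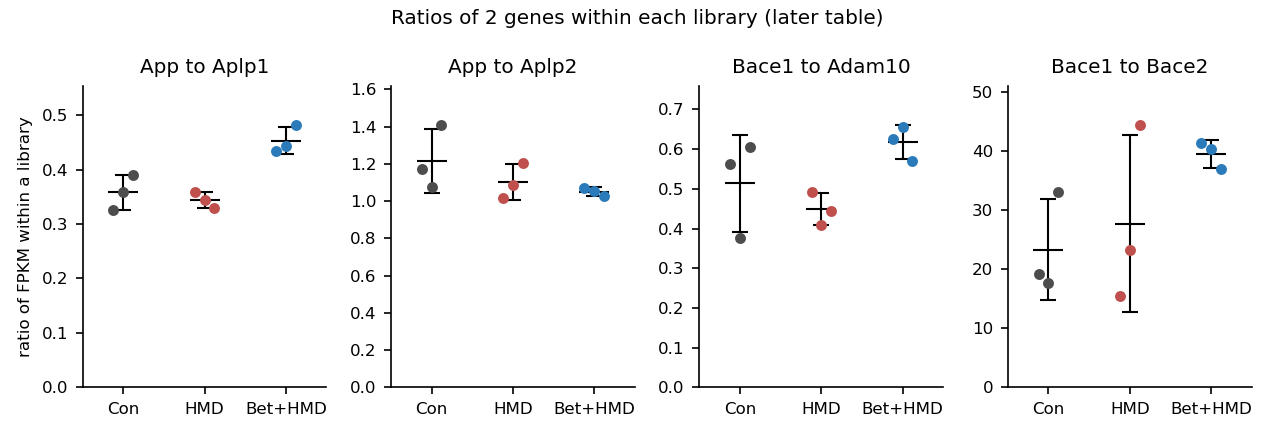
Ratio of the FPKM of 2 genes within each of the 9 libraries of the later table, with points for libraries, a long bar for the group mean and whiskers for 1 SD (n = 3); axes start at 0. App to Aplp1 is higher in all 3 Bet+HMD libraries (0.434 to 0.481) than in the other 6, and Bace1 to Adam10 is higher in Bet+HMD than in HMD while overlapping Con.

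The other genes of the pathway were taken from a list of 60, drawn up by role, of which 59 were in the tables and 53 passed the filter. For HMD against Con, 0 of the 53 were called and 4 had an unadjusted p under 0.05. The 3 with the smallest p were Scn4b, Apba3 and Sorcs1. Scn4b, a sodium channel subunit that Bace1 cuts, averaged 3.50 ± 1.08 FPKM in Con and 6.97 ± 1.12 in HMD (adjusted p 0.726). Apba3, an adaptor that binds the App tail, averaged 3.53 ± 0.444 and 2.18 ± 0.568 FPKM, and Sorcs1, a sorting receptor, 1.56 ± 0.129 and 2.26 ± 0.303 FPKM (both adjusted p 0.980).

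For Bet+HMD against HMD, 22 of the 53 were called, 9 higher and 13 lower, which is near the 48.3% of all genes. Under TPM 28 were called, 20 higher and 8 lower. The list had a median log2 fold change of -0.08, beside -0.03 for all genes. For Bet+HMD against Con, 21 were called, 10 higher and 11 lower, near the 39.7% of all genes. Under TPM 21 were called, 15 higher and 6 lower, and of all calls under TPM 73.5% were higher against Con and 69.5% against HMD. Here the median was 0.00, beside -0.04 for all genes. The count against Con fell to 10, 9 and 9 when Bet+HMD replicate 1, 2 or 3 was left out.

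**Figure D5:**
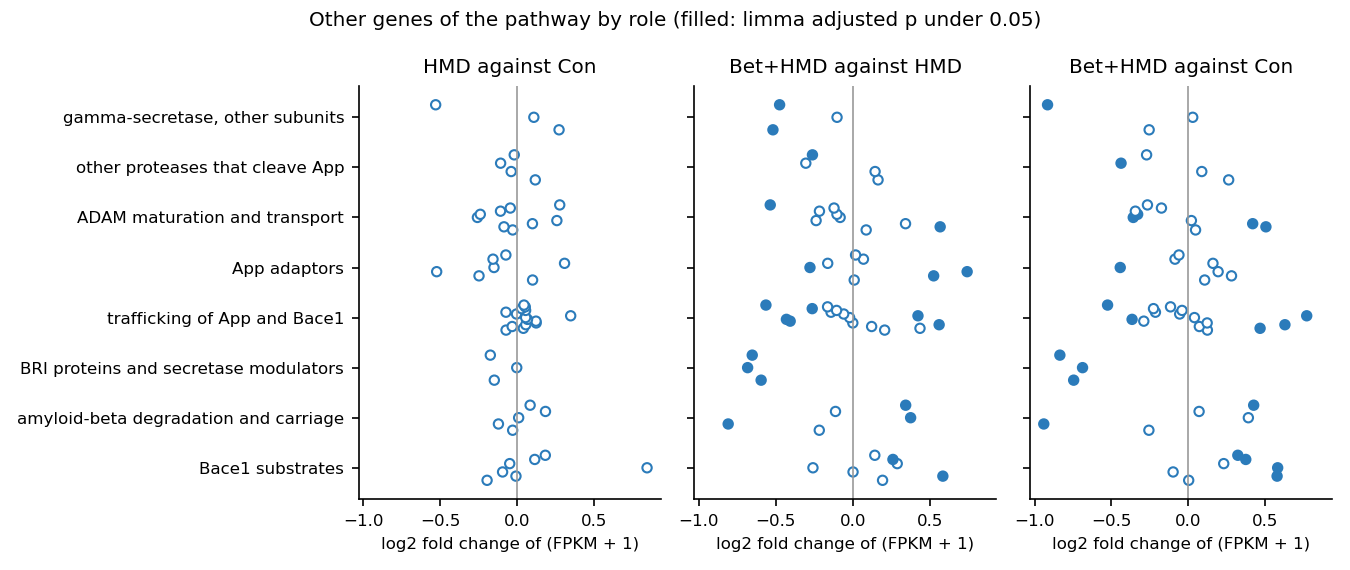
Log2 fold change of the 53 pathway genes tested, by role, in the 3 comparisons (n = 3 per group); filled points have a limma adjusted p under 0.05. No point is filled for HMD against Con, and all 3 BRI protein points are filled and left of 0 in both betaine comparisons.

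The BRI proteins Itm2a, Itm2b and Itm2c, small membrane proteins of which Itm2b and Itm2c bind App and hinder its cutting, all fell. The shares of all genes called lower were 25.5% against HMD and 20.4% against Con. In the highest class by level, which holds all 3, the median log2 fold change against HMD was -0.25 and the lower quartile -0.53. Itm2b went from 281 ± 28.7 FPKM in HMD to 174 ± 5.52 in Bet+HMD, a log2 fold change of -0.68 (adjusted p 0.000883). Itm2c went from 272 ± 5.75 to 172 ± 9.14 FPKM (-0.65, adjusted p 0.000406), and Itm2a from 29.2 ± 2.29 to 19.0 ± 1.83 (-0.60, adjusted p 0.00213). Against Con, the log2 fold changes were -0.84 for Itm2c, -0.75 for Itm2a and -0.69 for Itm2b. All 3 kept their direction under the 4 other scalings, and 1 call, that of Itm2b against Con under quantile normalization, was lost (adjusted p 0.0656). Their size shrank under quantile normalization, against HMD to -0.24 for Itm2b, -0.25 for Itm2c and -0.40 for Itm2a.

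Of the 3 other γ-secretase subunits tested, 2 fell against HMD and 1 against Con, beside 25.5% and 20.4% of all genes called lower. Psenen, which activates the complex, fell from 14.1 ± 1.76 FPKM in HMD to 9.79 ± 0.561 in Bet+HMD (log2 fold change -0.48, adjusted p 0.00722). Con stood at 19.8 ± 5.74 FPKM, and the log2 fold change against Con was -0.92 (adjusted p 0.00846). Between the 2 tables the reads of Psenen went from 253 to 304 (20.2%) in HMD replicate 3. In the other libraries they differed by -5.41% to -0.347%, within the range of all genes together (-5.49% to -0.312%). Among members the largest such differences were -10.6% for Bace2 and -9.91% for Psen2, each in HMD replicate 1. Aph1b, an alternative to Aph1a, fell from 12.3 ± 2.57 to 8.19 ± 0.370 FPKM against HMD (-0.52, adjusted p 0.0160), though not under TPM (adjusted p 0.0721). Aph1b has a near-identical copy, Aph1c, so its value is uncertain. Aph1c had 2.82 ± 0.389 and 2.55 ± 0.0748 FPKM and did not pass.

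Of the 7 Bace1 substrates tested, 2 rose against HMD and 4 against Con, beside 22.8% and 19.4% of all genes, and none fell. The count against HMD depended on the scaling and was 3 under median centring, 5 under voom and 6 under both TPM and quantile normalization, while that against Con was 4 or 5. L1cam, a neural adhesion molecule, rose from 10.4 ± 1.43 FPKM in HMD to 16.0 ± 0.318 in Bet+HMD (log2 fold change 0.59, adjusted p 0.00276), and by 0.58 against Con. Sez6l, a membrane protein of neurons, rose from 49.1 ± 3.29 to 58.9 ± 2.80 FPKM (0.26, adjusted p 0.0273). Scn4b rose against Con by 0.58 (adjusted p 0.0414), from 3.58 ± 1.10 to 5.74 ± 0.692 FPKM, but not under quantile normalization (adjusted p 0.0559).

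Of the 7 adaptors of App tested, 2 rose and 1 fell against HMD (22.8% and 25.5% of all genes), and 0 rose and 1 fell against Con (19.4% and 20.4% of all genes). The gene that fell was Apbb1 in both, and no adaptor was called lower in either comparison under TPM, quantile normalization or voom. Apba3 rose from 2.16 ± 0.502 to 4.24 ± 0.155 FPKM against HMD (log2 fold change 0.74, adjusted p 0.00314), and Apba2 from 34.6 ± 3.69 to 50.1 ± 1.47 (0.53, adjusted p 0.00275). Apbb1, which binds the App tail and can enter the nucleus with it, fell against Con from 69.8 ± 12.8 to 50.5 ± 3.26 FPKM (-0.44, adjusted p 0.0457). This call was lost under each of the 4 other scalings, and against HMD the sign of Apbb1 turned under quantile normalization (0.04).

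Of the trafficking genes, 2 of 15 rose and 4 fell against HMD, and 3 rose and 2 fell against Con. The shares of all genes were 22.8% higher and 25.5% lower against HMD, and 19.4% and 20.4% against Con. The balance against HMD turned to 4 higher and 2 lower under TPM, 4 and 1 under quantile normalization and 4 and 3 under voom. Gga3, which sorts Bace1 toward lysosomes, rose from 7.99 ± 0.263 to 12.3 ± 0.625 FPKM against HMD (log2 fold change 0.56, adjusted p 0.000833) and by 0.63 against Con. Vps35, the core of the retromer that returns App from endosomes, fell from 28.2 ± 2.43 to 18.7 ± 0.232 FPKM (-0.56, adjusted p 0.00120). Sorcs1 rose against Con from 1.60 ± 0.136 to 3.42 ± 0.208 FPKM (0.77, adjusted p 0.00127).

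Of 9 genes of ADAM maturation, 1 rose and 1 fell against HMD, and 2 rose and 2 fell against Con, so most were not called, beside 48.3% and 39.7% of all genes called. Against Con, 0 were called lower under TPM and voom and 1 under quantile normalization and median centring. Pcsk7, a proprotein convertase that can activate ADAM proteases, rose from 2.86 ± 0.635 to 4.67 ± 0.204 FPKM against HMD (log2 fold change 0.57, adjusted p 0.00888) and by 0.50 against Con. Tspan5, a tetraspanin that carries Adam10 to the surface, fell from 26.4 ± 3.26 to 17.8 ± 0.214 FPKM against HMD (-0.54, adjusted p 0.00340). Rhbdf1, which helps Adam17 mature, rose against Con from 1.51 ± 0.367 to 2.34 ± 0.224 FPKM (0.42, adjusted p 0.0450), though not under quantile normalization. Of 4 other proteases tested that cut App, 1 fell and 0 rose in each betaine comparison, beside 25.5% (HMD) and 20.4% (Con) of all genes called lower. Mmp24 fell against HMD from 8.55 ± 0.749 to 6.95 ± 0.460 FPKM (-0.26, adjusted p 0.0418) and Lgmn, asparagine endopeptidase, fell against Con from 40.0 ± 5.42 to 29.1 ± 2.02 FPKM (-0.44, adjusted p 0.0237). Each call held under 1 of the 4 other scalings, that of Mmp24 under quantile normalization and that of Lgmn under median centring.

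Of 5 genes tested that degrade or carry amyloid-β, 2 rose and 1 fell against HMD, and 1 rose and 1 fell against Con. The shares of all genes were 22.8% higher and 25.5% lower against HMD, and 19.4% and 20.4% against Con. Cst3, cystatin C, fell from 669.7 ± 115 FPKM in HMD to 379 ± 39.2 in Bet+HMD (log2 fold change -0.81, adjusted p 0.00298), and by 0.94 on the log2 scale against Con. In its class by level, the highest, the median against HMD was -0.25 and the lower quartile -0.53. Under quantile normalization the difference from HMD was -0.37 and was not called (adjusted p 0.0649), and that from Con was -0.44. Cst3 is a gene of astrocytes and microglia, whose marker sums were also lower in Bet+HMD as deposited. Those sums were not rescaled, and their part in Cst3 was not tested. Ece1, an enzyme that degrades amyloid-β, rose from 6.78 ± 0.985 to 9.05 ± 0.330 FPKM against HMD (0.38, adjusted p 0.0210). Lrp1, a receptor that takes up amyloid-β, rose against Con from 22.9 ± 3.36 to 30.8 ± 0.650 FPKM (0.42, adjusted p 0.0244).

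The genes whose levels followed a member most closely over the 9 libraries of the later table were found among 13463 genes. For App they were Pcna (r = 0.992), Mog (0.989) and the transcript Particl (0.988), and 855 genes had an r of at least 0.9. For Bace1 they were Rps26-ps1 (0.981), Ctdsp1 (0.969) and Gm16418 (0.968), with 182 genes at 0.9 or more. For Adam10 they were Gulp1 (0.924), the noncoding 4732487G21Rik (0.923) and Man1a (0.921), with 5 genes at 0.9 or more. These are correlations of log2(FPKM + 1) across libraries that share group, library scale and depth, and they are given as a description.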

How the data were processed

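Hippocampal RNA-seq was analysed from 2 tables of FPKM that the authors deposited, made per the labels on mm10 with HISAT2 2.1.0 and featureCounts 1.5.0-p3; the methods name other versions of both tools, after rRNA depletion and stranded paired-end sequencing. The deposited tables also give gene lengths, another unit, and the labels' groups were matched to columns by name, with the prefix COL read as Con by inference. There were 0 columns of other samples. Whole reads were recovered from FPKM, gene length and library size (100% of values whole within 0.05).

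Groups were compared only within a table, the earlier for HMD against Con and the later otherwise, with limma 3.58.1 in R 4.3.3: moderated tests with an intensity trend on log2(FPKM + 1), so that folds of low genes are understated, genes with a mean of at least 1 FPKM, and Benjamini-Hochberg adjustment over all genes. Because the values are FPKM, limma took the place of the count tools named in the methods. The code was tested on simulated data. The members and lists were chosen with earlier results of these data known. All members were named; of the pathway list, up to 2 called and non-overlapping genes of largest change per role and comparison, or the 3 of smallest p where none was called, with Itm2a against HMD, Itm2b against Con and Aph1c added after their values were seen; for App, Bace1 and Adam10, the 3 genes of highest r. Alternatives were another pseudocount (0.1), filters (none, 5 FPKM, and a mean of 10 reads, chosen after seeing the data), TPM, quantile normalization, median centring, voom on reads, no trend, 1 fit of all 3 groups, protein-coding genes alone, a replicate block and each library left out. The pathway gene Apbb3 was not analysed here. Depth was 16031464 to 18566712 reads per library, so members other than Bace2 and Psen2 had 399 reads or more.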

Additional observations from a re-analysis of the deposited data

How the results depend on the processing

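Aplp1 and Bace1 kept their calls for Bet+HMD against HMD in all 12 alternatives and all 6 fits with a library left out, and App kept its call in 8 of 12 and 3 of 6. For HMD against Con no member and no pathway gene was called under any of 13 alternatives or with a library left out, although 1 fit of all 3 groups called 9 other genes. Members called against Con went from 1 to 2 under TPM and to 2 with all 3 groups in 1 fit. With a library left out, members called ranged from 2 to 4 against HMD and from 1 to 2 against Con, and pathway genes from 16 to 26 and from 9 to 25. The main fits did not pair samples by replicate number. Deviations of same-numbered libraries correlated at -0.0555, 0.346 and 0.319 for HMD against Con. For Bet+HMD they correlated at 0.0171, -0.102 and -0.151 against HMD and at -0.0489, -0.0902 and -0.176 against Con. Blocking by that number for HMD against Con put 1034 genes at an unadjusted p under 0.05 (limma), beside 592 without it. Neither fit called a gene. With the replicate number as a block, 10 pathway genes in place of 21 were called against Con and 18 in place of 22 against HMD, 2 members in place of 3 were called against HMD (App had an adjusted p of 0.0732), 1 against Con and 0 for HMD against Con.

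Signs turned as follows, as log2 fold changes. Against HMD, TPM gave Aplp2 0.0214, Ncstn 0.16 and Adam10 0.12, quantile normalization gave App 0.13, Aplp2 0.22, Psen2 -0.072, Ncstn 0.11 and Adam10 0.12, and voom gave Ncstn 0.0452 and Adam10 0.0123. Against Con, TPM gave Aplp2 0.19, Psen2 0.15, Aph1a 0.19 and Adam10 0.12, quantile normalization gave App 0.19, Aplp2 0.39 and Adam10 0.10, voom gave Aplp2 0.0516, Psen2 0.0279 and Aph1a 0.063, and median centring gave Aph1a 0.0080. For HMD against Con, TPM gave Adam10 0.00843. With a library left out, signs turned within these ranges. For HMD against Con they were -0.0125 to 0.0472 (App), -0.23 to 0.0413 (Psen2), -0.0066 to 0.15 (Ncstn) and -0.11 to 0.11 (Adam10). Against HMD they were -0.058 to 0.22 (Psen2) and -0.10 to 0.00166 (Ncstn). Against Con they were -0.10 to 0.0508 (Aplp2), -0.12 to 0.0628 (Psen2), -0.0375 to 0.0959 (Ncstn), -0.0711 to 0.0454 (Aph1a) and -0.19 to 0.0217 (Adam10). The scaling alternatives differ by construction in the sum or distribution of each library, and why the sums differ was not tested. Psen2 had no value under the filter at 5 FPKM. Depth limits Bace2 and Psen2 the most.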
